A study of Homo sapiens with 6 samples.

Results

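The 5′ TOP snoRNA host genes are long noncoding genes whose introns carry small nucleolar RNAs (snoRNAs) and which are known for transcripts that begin with a run of pyrimidines. The 10 genes described here (GAS5, SNHG1, SNHG5, SNHG6, SNHG7, SNHG8, SNHG12, SNHG15, SNHG16 and ZFAS1) were taken by name from 38126 Ensembl gene IDs, and all 10 were found. Their RNA was measured by RNA-seq of total RNA in HK-2 cells, a human line immortalised from the epithelium of the proximal tubule of the kidney. The untreated group had 3 libraries, and the phosphoramidon group had 3 libraries from cells exposed for 24 h. Phosphoramidon blocks zinc-dependent peptidases, among them neprilysin and the endothelin-converting enzymes, and no dose is given for it. All cells grew in serum-free keratinocyte medium supplemented with recombinant EGF and pituitary extract from cattle. In the titles the untreated libraries bear an unexplained abbreviation, CSE, and their group was taken from the treatment label. The labels do not state whether each replicate was its own culture, so the tests gauge library-to-library spread, possibly technical only.

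A snoRNA is cut out of the intron of its host transcript and guides the chemical modification of ribosomal and spliceosomal RNA. Box C/D snoRNAs guide 2′-O-methylation and box H/ACA snoRNAs guide pseudouridylation. In these host genes the spliced exons encode no long protein. As background, a terminal oligopyrimidine (TOP) tract, a C at the first base followed by further C or T, places an RNA under growth-dependent control of translation through mTOR and LARP1, as in ribosomal protein mRNAs. Once translated, the spliced hosts, GAS5 above all, are degraded by nonsense-mediated decay, so their level depends on translation as well as on transcription.

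The first bases of the annotated transcripts show the feature that gives the genes their name. In GENCODE 29, 8 of the 10 genes had at least 1 transcript that begins with C and at least 5 pyrimidines in all, against 15.6% of 16143 tested genes with annotated transcripts and 83.5% of 79 ribosomal protein genes. A gene with more transcripts has more chances to match, and among tested genes with 4 to 29 transcripts, the range of these hosts, the share was 19.8%. Of all long noncoding genes tested, 7.2% matched. Counted by transcript, 16.9% of the hosts' annotated transcripts had such a start, against 2.6% of those of all tested genes and 20.4% of those of ribosomal protein genes. Since the genes were listed as TOP hosts, this share describes the choice and is no finding. The start shared by most matching transcripts of a gene (in a tie, the one with the longest run) is shown for 7 hosts, as the first 30 bases in 5′ to 3′ order on GRCh38, with the pyrimidine run in capitals.
GAS5, chr1:173867960-173867989, minus strand: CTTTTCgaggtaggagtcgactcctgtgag
SNHG16, chr17:76557769-76557798, plus strand: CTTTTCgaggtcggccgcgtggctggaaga
SNHG5, chr6:85678704-85678733, minus strand: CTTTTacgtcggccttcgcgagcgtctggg
ZFAS1, chr20:49278642-49278671, plus strand: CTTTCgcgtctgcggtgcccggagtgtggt
SNHG8, chr4:118278758-118278787, plus strand: CTTTCacattcgggaagcgtcgggattagg
SNHG12, chr1:28581844-28581873, minus strand: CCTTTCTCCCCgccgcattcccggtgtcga
SNHG1, chr11:62855450-62855479, minus strand: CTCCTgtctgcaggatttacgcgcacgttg
The runs were 5 or 6 bases long except in SNHG12, whose run of 11 was the longest of those shown. In SNHG1 the start belongs to 1 of 25 transcripts and lies 435 bases inside the gene, and in SNHG8 it belongs to 1 of 5 transcripts. The SNHG12 start belongs to 2 of 17 transcripts and lies 1259 bases inside the gene, the farthest of those shown. In GAS5 and ZFAS1 the starts lie 893 and 464 bases inside, and in SNHG8, SNHG5 and SNHG16 they lie 49, 15 and 3 bases inside. SNHG6, the other host with a match, had a run of 7 that lies 857 bases inside the gene. SNHG7 and SNHG15 had no annotated transcript with such a start.

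RefSeq promoters (GRCh38.p14) were available for 8 of the hosts, and 5 of them hold the letters TATAA on the transcribed strand between 45 and 15 bases before the annotated start. The same window held TATAA in 2.80% of 16585 promoters of tested genes, in 4.09% of all 35116 promoters, in 8.97% of 78 ribosomal protein promoters and in 1 of 15 promoters of other noncoding snoRNA hosts. Counting both strands, these shares were 62.5% of the 8 hosts, 3.39% of tested genes and 5.04% of all promoters. Each window below runs from 45 bases before to 5 bases into the annotated transcript, with TATAA in capitals, and they are shown because this was shared by hosts that fell and by SNHG12.
SNHG5, chr6:85678729-85678778, minus strand: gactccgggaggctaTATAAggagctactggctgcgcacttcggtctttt
SNHG7, chr9:136728180-136728229, minus strand: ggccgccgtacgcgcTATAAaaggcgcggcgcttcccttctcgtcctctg
SNHG8, chr4:118278717-118278766, plus strand: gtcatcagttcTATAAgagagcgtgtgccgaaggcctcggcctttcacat
SNHG12, chr1:28581869-28581918, minus strand: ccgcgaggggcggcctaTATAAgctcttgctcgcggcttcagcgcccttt
ZFAS1, chr20:49278597-49278646, plus strand: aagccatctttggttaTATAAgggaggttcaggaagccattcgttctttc
TATAA began 28 to 34 bases before the start in these 5 promoters. The letters were absent from the windows of GAS5, SNHG1 and SNHG16. The annotated start behind the GAS5 window lies 163 bases outside the GENCODE 29 gene, while its TOP start lies 893 bases inside, so that window does not precede the TOP start, and the SNHG1 window likewise does not. A match of letters is a description of the window and not evidence of binding.

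Levels are FPKM as deposited, fragments scaled by gene length and by the assigned fragments of the library. Comparison between genes is limited, because that length covers very different shares of each gene, as given below. All 10 hosts passed the filter on low values, with 132 fragments as the lowest number in any library (SNHG7) and 3191 as the highest (GAS5). In untreated cells the levels ran from 25.8 ± 1.46 FPKM for GAS5 to 2.24 ± 0.254 FPKM for SNHG7 (SD, n = 3 here and below). GAS5 lay above 91.2% and SNHG7 above 41.8% of all tested genes. The order from high to low was GAS5, SNHG6, SNHG8, SNHG1, ZFAS1, SNHG16, SNHG5, SNHG15, SNHG12 and SNHG7. Neighbours in that order whose libraries overlapped were SNHG1 and ZFAS1, and SNHG15 and SNHG12. After phosphoramidon SNHG8 and SNHG1 changed places, and the other ranks were as before. The exons annotated in GENCODE 29 covered very different shares of the genes, from 12.8% of the span in ZFAS1 to 95.6% in SNHG1, with 72.9% in GAS5 and 82.8% in SNHG8. For GAS5 and SNHG8 the length behind the deposited values was inferred from the values themselves, and it comes to 97.2% and 100% of the span. Where exons cover nearly the whole gene, fragments of unspliced RNA and of the snoRNA segments enter the value, and the files do not separate them.

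**Figure D1:**
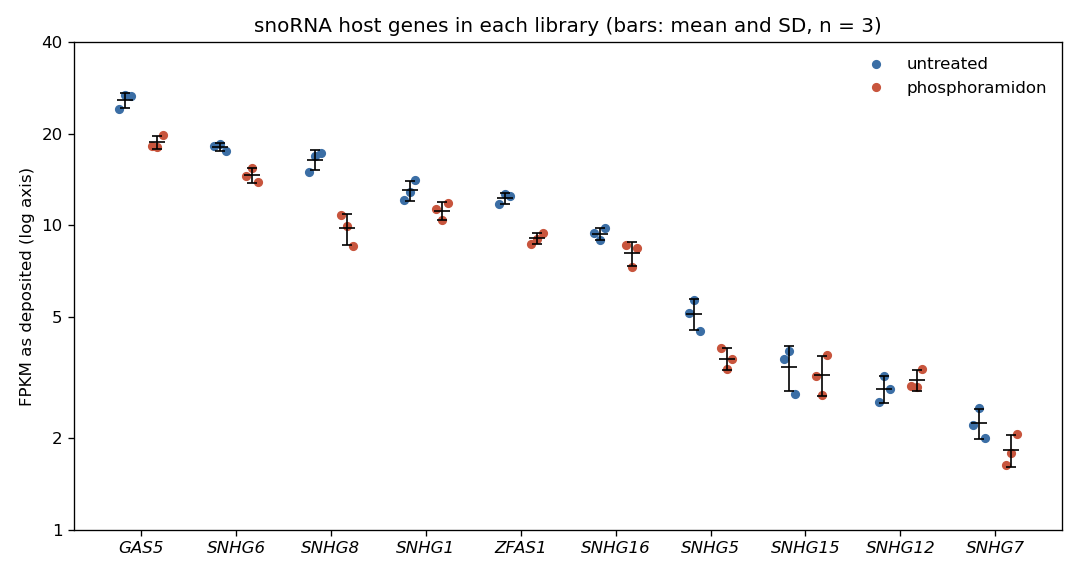
FPKM as deposited (log axis) of each of the 10 snoRNA host genes in the 3 untreated and the 3 phosphoramidon libraries, ordered by untreated mean, with points for libraries and bars for the mean and SD (n = 3). In 7 genes all phosphoramidon libraries lie below all untreated libraries, while SNHG7, SNHG12 and SNHG15 overlap.

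Of the 10 hosts, 8 fell after phosphoramidon and 0 rose (limma, adjusted p below 0.05 over 16148 tested genes), against a background of 19.4% of all tested genes lower and 14.2% higher (33.5% in either direction). Of all called genes 57.7% were lower, a share that was 37.3% when no scaling factors were applied. At an unadjusted p below 0.05 the counts were also 8 and 0, and voom, a fit to recovered fragments, gave 8 and 0 too. The median log2 fold change of the hosts was -0.38, beside -0.01 for all tested genes. In limma's treat test against a 1.5-fold change 0 hosts passed (1 at unadjusted p below 0.05, 0 adjusted with voom). Of tested genes 0.737% passed it downwards and 0.861% in either direction. Not passing this test does not show that a change is smaller than 1.5-fold. In 7 hosts the phosphoramidon libraries all lay below the untreated ones, as in 18.4% of all tested genes, and in 0 they all lay above, as in 31.3%. Levels are printed as deposited, whereas fold changes are after TMM factors between libraries, which moved the median of all tested genes from 0.07 to -0.01. In bulk RNA, fewer cells expressing a gene and less RNA per cell cannot be told apart.

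SNHG8, the host of the H/ACA snoRNA SNORA24 (ENSG00000269893, chromosome 4, 118278709 to 118279823), had the lowest fold change. It stood at 15.0025, 16.9 and 17.3 FPKM untreated (replicates 1 to 3, in that order here and below) and at 10.8, 9.97 and 8.57 FPKM after phosphoramidon. The groups were well apart, and the mean fell by 40.3%. The log2 fold change was -0.83 ± 0.09 (SE, 95% interval -1.04 to -0.62, limma adjusted p = 3.6e-04). Among tested genes 2.32% had a lower fold change, and of the 79 ribosomal protein genes 0 did.

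GAS5, named for its accumulation in growth-arrested cells and the host of a series of box C/D snoRNAs from SNORD44 to SNORD81 (ENSG00000234741, chromosome 1, 173863900 to 173868882), had the highest FPKM of the hosts. It measured 24.1, 26.8 and 26.6 FPKM untreated and 18.3, 18.2 and 19.9 FPKM after phosphoramidon. Every treated library lay below every untreated one, and the mean fell by 27.3%. Its log2 fold change was -0.55 ± 0.05 (SE, adjusted p = 9.1e-05), lower than in all but 3 of the 79 ribosomal protein genes.

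ZFAS1, transcribed from the start region of ZNFX1 on the other strand and the host of the SNORD12 family (ENSG00000177410, chromosome 20, 49278178 to 49295738), gave 11.7, 12.7 and 12.5 FPKM untreated. Its treated libraries gave 8.71, 9.03 and 9.46 FPKM, again with no overlap. The log2 fold change was -0.53 ± 0.05 (SE, adjusted p = 9.6e-05). SNHG5, the host of SNORD50A and SNORD50B (ENSG00000203875, chromosome 6, 85660950 to 85678748), went from 5.17, 5.69 and 4.495 FPKM to 3.95, 3.36 and 3.64 FPKM. Untreated replicate 3 was the lowest of its group and still lay above all treated libraries. The log2 fold change was -0.56 ± 0.09 (SE, adjusted p = 0.0022).

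SNHG6, the host of SNORD87 (ENSG00000245910, chromosome 8, 66921684 to 66926398), read 18.3, 18.6 and 17.6 FPKM untreated and 14.5, 15.5 and 13.9 FPKM treated. Replicates were tight in both groups, and the log2 fold change was -0.40 ± 0.05 (SE, adjusted p = 7.9e-04). SNHG1, the host of the SNORD22 and SNORD25 to SNORD31 cluster (ENSG00000255717, chromosome 11, 62851988 to 62855914), read 12.1, 12.9 and 14.1 FPKM untreated and 11.3, 10.4 and 11.8 FPKM treated. Its groups were close, with the lowest untreated library just above the highest treated one, and the log2 fold change was -0.31 ± 0.07 (SE, adjusted p = 0.0072).

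SNHG16, the host of SNORD1A, SNORD1B and SNORD1C (ENSG00000163597, chromosome 17, 76557766 to 76565348), read 9.41, 8.93 and 9.81 FPKM untreated and 8.65, 7.28 and 8.41 FPKM treated. The groups did not overlap, and the log2 fold change was -0.30 ± 0.07 (SE, adjusted p = 0.014). Without factors between libraries its call was lost (-0.21, adjusted p = 0.051), and likewise without a filter on low genes (adjusted p = 0.068). SNHG7, the host of SNORA17A and SNORA17B (ENSG00000233016, chromosome 9, 136721366 to 136728184), read 2.21, 2.51 and 2.003 FPKM untreated and 1.63, 1.79 and 2.06 FPKM treated. Phosphoramidon replicate 3 lay above untreated replicate 3, so the groups overlapped. The log2 fold change of -0.37 ± 0.11 (SE, adjusted p = 0.033) was the least secure call: it was lost without untreated replicate 1 (adjusted p = 0.078) or replicate 2 (0.11), without phosphoramidon replicate 1 (0.091) or replicate 2 (0.08), without scaling factors (0.096) and without a filter on low genes (0.11).

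The other two hosts did not pass the test. SNHG12, the host of SNORD99, SNORA44, SNORA61 and SNORA16A (ENSG00000197989, chromosome 1, 28578538 to 28583132), stood at 2.62, 3.20 and 2.89 FPKM untreated and 2.96, 2.94 and 3.38 FPKM treated. Its groups overlapped, the log2 fold change was 0.00 ± 0.09 (SE, adjusted p = 0.98), and the 95% interval ran from -0.19 to 0.20. That interval holds neither the median of the hosts nor that of the ribosomal protein genes (-0.41), and it does not overlap those of SNHG8, GAS5, ZFAS1, SNHG5 and SNHG6. SNHG15, the host of SNORA9 (ENSG00000232956, chromosome 7, 44983023 to 44986961), stood at 3.64, 3.87 and 2.78 FPKM untreated and 3.20, 2.76 and 3.74 FPKM treated. Libraries of both groups were mixed, and the interval around its log2 fold change of -0.17 ± 0.14 (SE, adjusted p = 0.40) ran from -0.48 to 0.15, wide enough to hold the hosts' median. SNHG12 carries a TATAA and the longest pyrimidine run of the starts shown, in 2 of 17 transcripts and 1259 bases inside the gene. SNHG15 had no TOP-like annotated start, and neither had SNHG7, which was called lower.

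**Figure D2:**
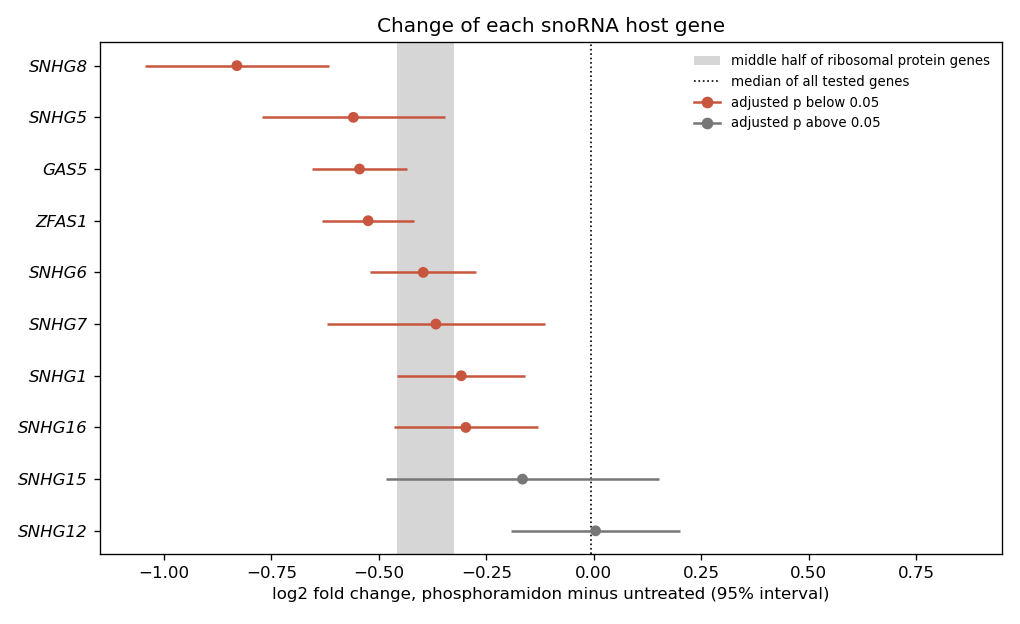
Log2 fold change (phosphoramidon minus untreated) of each host with its 95% interval, coloured by limma's adjusted p, beside the interquartile range of the ribosomal protein genes (grey band) and the median of all tested genes (dotted line). SNHG8 lies left of the band at -0.83, and SNHG12 lies at 0.00 on the dotted line.

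Over the 10 hosts, those with higher untreated levels tended to have lower fold changes (Pearson r = -0.59 with log2 level, Spearman rho = -0.55, n = 10 genes from the same 6 libraries, given as a description), and lower genes also have fewer fragments and a larger effect of the pseudocount. Likewise as a description, hosts with a greater exon length behind their values tended to have higher fold changes (Pearson r = 0.55, Spearman rho = 0.49). Summed over the hosts, the level was 108.9 ± 4.00 FPKM in untreated and 83.4 ± 1.93 FPKM in phosphoramidon libraries. Of all assigned fragments, the hosts took 0.0342 ± 0.00129% and 0.0269 ± 0.0012%. For every 1000 fragments on ribosomal protein genes, the hosts had 9.96, 10.7 and 10.8 fragments in the untreated libraries and 9.94, 10.1 and 10.9 in the treated ones. These ratios overlapped between groups (10.5 ± 0.439 and 10.3 ± 0.504), while the ribosomal protein share itself was 3.27 ± 0.0329% and 2.62 ± 0.0871%.

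Little can be said of the snoRNAs themselves, as most were not analysed. RefSeq places 37 snoRNA genes inside the 10 hosts, and for 4 of them values were used here, the other 33 being not analysed. SNORD12B in ZFAS1 was tested, with 31, 20 and 17 fragments in untreated and 19, 31 and 24 in phosphoramidon libraries. Its log2 fold change was 0.26 ± 0.25 (SE, adjusted p = 0.47), so a change in either direction was not detectable at this depth. SNORD12C in the same gene had 2 to 19 fragments, SNORD99 in SNHG12 had 3 to 10 and SNORD1B in SNHG16 had 0 or 1.

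Several hosts share a start region or overlap with a gene on the opposite strand. The use of strand in the counting is not given in the sources used here, so fragments from overlapping exons of such a pair cannot be told apart. SLC3A2, the heavy chain of the amino acid transporters LAT1 and xCT, starts 188 bases from SNHG1 in the other direction without overlap. It fell from 15.3, 15.8 and 14.6 FPKM to 10.8, 10.8 and 11.2 FPKM (log2 fold change -0.56 ± 0.04, SE, adjusted p = 4.7e-05), so both genes of this pair were lower after phosphoramidon. ZNFX1, a helicase-like zinc finger protein, shares 249 exonic bases with ZFAS1 and read 18.1, 17.5 and 17.3 FPKM untreated and 19.0, 18.5 and 17.9 FPKM treated (log2 fold change -0.02 ± 0.05, SE, adjusted p = 0.76). ZBTB37, a zinc finger protein that overlaps the start of GAS5 with no shared exon in GENCODE 29, had a log2 fold change of -0.07 ± 0.10 (SE, adjusted p = 0.62), and GAS5-AS1 -0.04 ± 0.19 (SE, adjusted p = 0.90). The length inferred for the GAS5 values covers 97.2% of its span, more than the GENCODE 29 exons. Shared exonic bases with ZBTB37 in the counted annotation are therefore possible. The neighbours MCMDC2 of SNHG6 (0.23), DIPK1B of SNHG7 (-0.15) and TRNAU1AP of SNHG12 (0.14) did not pass the test, and 3 neighbours of SNHG16 and ZFAS1 were too low to test. MCMDC2, DIPK1B and TRNAU1AP share 365, 1094 and 8 exonic bases with their hosts, and GAS5-AS1 shares 42 with GAS5. The limit on overlapping exons holds for these pairs too.

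The difference within a pair was taken as the log2 ratio of host to neighbour in each library, with 0.1 FPKM added to both. Scaling between libraries cancels in this ratio apart from the effect of the added 0.1. That addition lowers the ratio most where the neighbour is low, as for MCMDC2. For ZFAS1 over ZNFX1 the ratio was -0.52 ± 0.0925 in untreated and -1.02 ± 0.101 in phosphoramidon libraries. GAS5 over ZBTB37 gave 3.44 ± 0.102 and 2.96 ± 0.0900, and SNHG6 over MCMDC2 gave 4.84 ± 0.0396 and 4.23 ± 0.0381. Ratios of treated libraries lay below all untreated ones in these 3 pairs and for GAS5 over GAS5-AS1. For each of the 4 the two-sided exact permutation p was 0.1, the smallest that 3 libraries against 3 can give, with adjusted p = 0.175 over 7 pairs. SNHG1 over SLC3A2 moved the other way, from -0.23 ± 0.151 to 0.03 ± 0.0766, with overlapping libraries (exact permutation p = 0.2, adjusted p = 0.28).

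**Figure D3:**
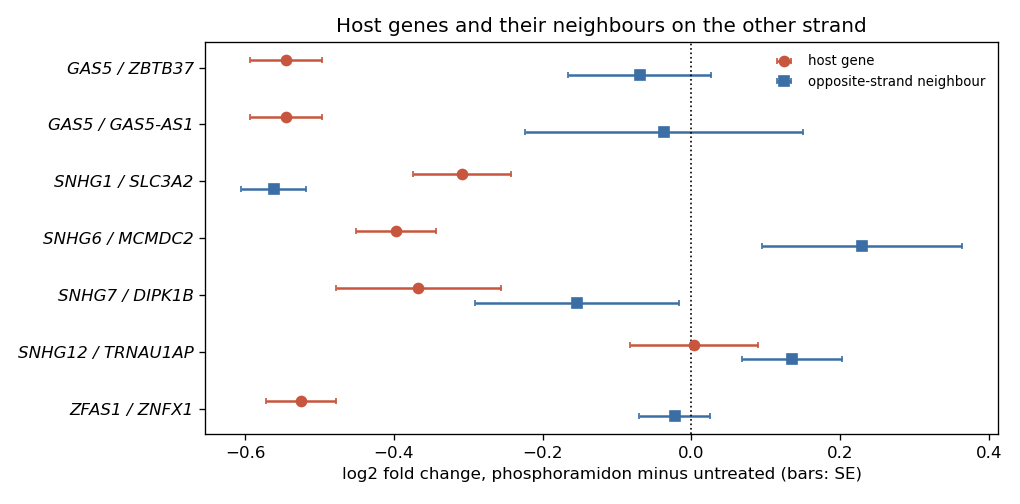
Log2 fold changes (phosphoramidon minus untreated, bars show the SE) of host genes (red circles) and of their tested neighbours on the opposite strand (blue squares), 1 row per pair. SLC3A2 at -0.56 lies below SNHG1, and ZNFX1 at -0.02 lies near 0 beside ZFAS1 at -0.53.

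Of 17 other noncoding snoRNA hosts listed, 14 were tested, 6 fell and 0 rose (10 and 0 at unadjusted p below 0.05, 7 and 0 with voom), with a median log2 fold change of -0.27. SNHG29 fell from 61.4 ± 1.604 to 41.7 ± 1.77 FPKM (-0.64 ± 0.05, SE, adjusted p = 3.8e-05), and SNHG32 from 14.5 ± 1.80 to 10.1 ± 0.714 FPKM (-0.60 ± 0.08, SE, adjusted p = 7.1e-04). SNHG32 was listed as a noncoding host, but GENCODE 29 annotates it as protein-coding, the only such gene among the 14. Among protein-coding genes with a snoRNA inside, ribosomal proteins aside, 46 of 203 (22.7%) were lower and 39 (19.2%) higher, with a median of -0.01. These shares lie near those of all tested genes. MAGED2 fell from 79.7 ± 3.76 to 49.98 ± 2.66 FPKM and AMMECR1 from 10.3 ± 0.358 to 6.73 ± 0.255 FPKM. Long noncoding genes as a class were also spread to both sides, with 162 of 1979 (8.2%) lower, 165 (8.3%) higher and a median of 0.05. LINC01111 fell from 8.32 ± 0.839 to 3.52 ± 0.210 FPKM, and the unnamed gene ENSG00000227706 rose from 13.4 ± 0.38 to 29.8 ± 0.911 FPKM.

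Ribosomal protein genes and other TOP mRNAs were mostly lower. Of 79 ribosomal protein genes, 76 were lower and 0 higher (77 and 0 unadjusted, 77 and 0 with voom), with a median of -0.41 and an interquartile range from -0.46 to -0.33. RPL34 fell from 42.7 ± 1.503 to 29.4 ± 1.08 FPKM and RPL13A from 419 ± 23.5 to 279.6 ± 7.93 FPKM. Of 17 other mRNAs known to carry a TOP start, 16 were lower and 0 higher (16 and 0 unadjusted, 16 and 0 with voom), with a median of -0.35. Among them the initiation factor EIF4B fell from 93.9 ± 1.73 to 72.1 ± 0.502 FPKM (-0.47 ± 0.04, SE), and the nucleolar chaperone NPM1 from 189.6 ± 3.72 to 157.8 ± 2.06 FPKM (-0.35 ± 0.04, SE). SNHG8, SNHG5, GAS5 and ZFAS1 lay below the lower edge of the ribosomal protein genes' interquartile range, and SNHG1, SNHG16, SNHG15 and SNHG12 lay above its upper edge.

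**Figure D4:**
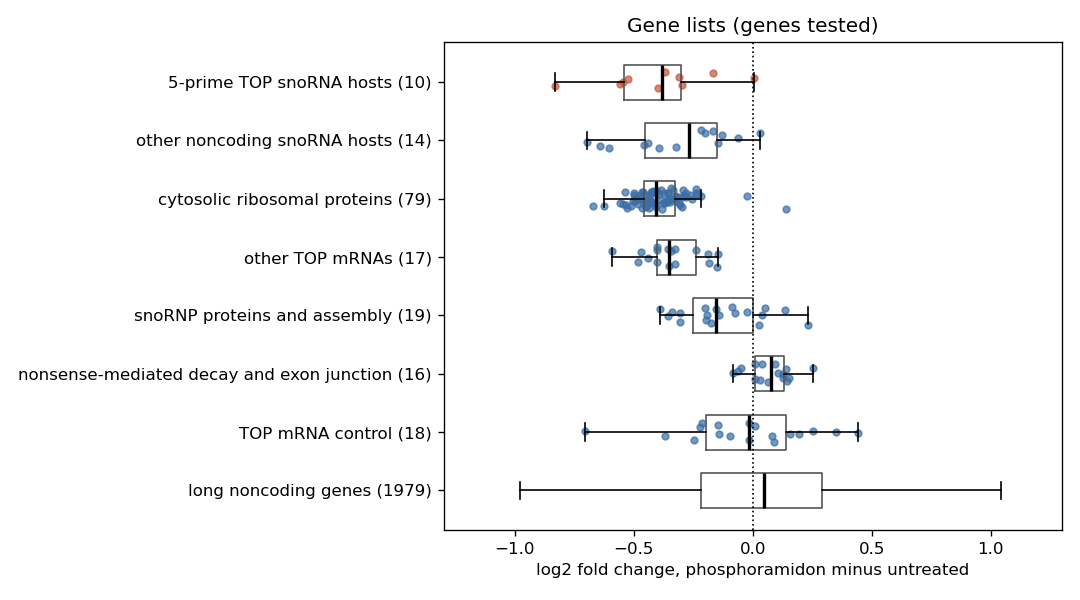
Log2 fold changes (phosphoramidon minus untreated) of the host genes (red) and other lists (blue), 1 point per tested gene except for the 1979 long noncoding genes, where the box alone is drawn. Boxes span the interquartile range, whiskers reach at most 1.5 box lengths, and the medians are -0.38 for the hosts, -0.41 for ribosomal proteins and 0.05 for long noncoding genes.

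Among genes for proteins that act on these RNAs, those for snoRNA-binding and assembly proteins were mostly lower where called. Genes for decay were rarely called, and genes for TOP control were called in both directions. Of all tested genes 19.4% were lower and 14.2% higher. Of 19 genes for snoRNP proteins and their assembly, 9 (47.4%) were lower and 1 (5.3%) higher, with a median of -0.16. As deposited, without factors, 6 were lower and 2 higher, with a median of -0.07. Under that setting 2168 of all 16148 tested genes were lower and 3650 higher. The box C/D methyltransferase FBL fell from 50.6 ± 2.87 to 41.0 ± 0.692 FPKM, SNU13, which binds the C/D motif, fell from 30.03 ± 0.211 to 25.8 ± 0.366 FPKM, and NAF1, an H/ACA assembly factor, rose by 0.23. For nonsense-mediated decay and the exon junction complex, 0 of 16 genes were lower and 1 was higher (0 and 1 unadjusted, 0 and 1 with voom), with a median of 0.08. That gene was SMG9, a regulator of the kinase SMG1, at 2.79 ± 0.169 and 3.55 ± 0.0544 FPKM. As deposited, without factors, 5 of the 16 were higher, beside 3650 of all 16148 tested genes.

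Of 18 genes for the control of TOP mRNAs, 6 (33.3%) were lower and 4 (22.2%) higher, with a median of -0.02. For all tested genes the shares were 19.4% and 14.2%. As deposited the balance turned round, with 3 lower, 6 higher and a median of 0.07. It turned likewise for all 16148 tested genes, with 2168 lower, 3650 higher and a median of 0.07. MTOR, the kinase that licenses TOP translation, rose from 14.8 ± 0.350 to 20.04 ± 0.300 FPKM (0.35 ± 0.04, SE, adjusted p = 2.8e-04). The zinc finger protein CNBP fell from 129.9 ± 0.253 to 119 ± 1.35 FPKM (-0.21). RPS6KB1 (0.44), EIF4EBP2 (0.25) and RHEB (0.19) were the other members that rose. The other members that fell were EIF4EBP1 (-0.70), MLST8 (-0.37), RPTOR (-0.25), RPS6KB2 (-0.22) and LARP1 (-0.15).

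The libraries held 18690117 to 24919545 assigned fragments, and replicates differed by more than counting noise in all 6 pairs. Among renal epithelial genes, PAX8, KRT8, KRT18 and EPCAM were at 1 FPKM or more, while the mature proximal tubule markers LRP2, CUBN, SLC34A1, SLC5A2, GGT1, ANPEP and AQP1 were below it. The summed level of 12 markers was 227.7 to 244.4 FPKM in untreated and 209.5 to 217.8 FPKM in phosphoramidon libraries, and 4 of the 9 tested fell. Fibroblast markers moved with the treatment: all 4 of 6 that could be tested fell, and their sum went from 60.8 to 65.7 FPKM untreated to 23.5 to 24.9 FPKM treated, with COL3A1 at 0 in all libraries. The part of either marker list in the fall of the hosts was not tested. Endothelial and leukocyte markers summed to at most 0.153 and 0.300 FPKM.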

How the data were processed

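RNA-seq was compared between 3 untreated and 3 phosphoramidon libraries of HK-2 cells. The deposited values are FPKM per gene, made by the authors, as found from the values. Per the submitters' processing notes HISAT2 2.1.0, featureCounts 1.6.0, Trimmomatic 0.38 and DESeq2 1.22.1 were used with the build GRCh38, besides CASAVA, FastQC and MultiQC. What each did, which annotation was counted and whether strand was used is not given in the sources used here. Multiplied by merged exon length (GENCODE 29), values fell on whole fragments (within 0.05) for 79.1% of 34623 genes above 0, and for 99.6% after a search for a length. GAS5 and SNHG8 needed a searched length (4842 and 1115 bases). On 1 kb of exon, a single fragment gave 0.0401 to 0.0535 FPKM. Names came from a table that matched 37892 IDs.

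FPKM were divided by TMM factors from the recovered fragments (30% of M and 5% of A values trimmed), and log2(FPKM + 0.1) was fitted with limma 3.58.1 (R 4.3.3) on group, with a trended, robust prior and Benjamini-Hochberg adjustment over 16148 genes with at least 10 fragments in 3 libraries. Fold changes on this scale understate those of low genes. Promoters came from RefSeq (GRCh38.p14). The procedure was tested on simulated data with the same relative spread between replicates set for every gene. That test does not measure its accuracy on these libraries. All hosts are named with their values. Of other lists, counts and the 2 called genes of lowest p are given, with every member behind a count of 5 or fewer, and neighbours within 1000 bases or overlapping on the other strand. For the control of TOP mRNAs every called gene is named. The hosts and lists were chosen with earlier results of these data known. One listed marker is not reported here by name.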

Additional observations from a re-analysis of the deposited data

How the results depend on the processing

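The fit was repeated under 14 alternatives: other pseudocounts, scalings and filters, voom, the replicate block and each library left out. GAS5, SNHG1, SNHG5, SNHG6, SNHG8 and ZFAS1 (6 hosts) were called lower in all 14, SNHG16 in 12 and SNHG7 in 7, and 0 hosts were called higher in any. The number of hosts called lower was 6 with the values as deposited or with no filter, 7 with the replicate block and 7 to 8 with a library left out. The hosts' median log2 fold change was -0.33 with a pseudocount of 1, -0.30 as deposited and -0.43 to -0.37 with a library left out (-0.43 without untreated replicate 3). SNHG12 changed sign around 0, to -0.0004 with voom and to values between -0.0555 and 0.0607 with a library left out (-0.0555 without untreated replicate 1, -0.0492 without phosphoramidon replicate 3). With no filter 3549 genes were called in place of 5415, among 34485 tested. As deposited, 37.3% of called genes were lower in place of 57.7%, and the median of all tested genes was 0.07 in place of -0.01. Same-numbered libraries deviated together weakly (correlations 0.111, -0.021 and -0.013 for replicates 1 to 3), so the numbers were not taken as pairs, and the block changed 1 host call, that of SNHG7 (adjusted p = 0.053). The 4 snoRNAs with values had 31 fragments or fewer in each library, which limits the precision of those values.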
